A study of Mus musculus with 9 samples.

Results

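Mitochondrial ribosomal proteins are the protein subunits of the mitoribosome, the ribosome inside mitochondria. All of them are encoded in the nucleus, made in the cytosol and imported. The mitoribosome translates the few messages of mitochondrial DNA, which encode core subunits of the respiratory chain and of the ATP synthase, so it links the nuclear and the mitochondrial genome. Its large subunit forms peptide bonds and holds the tunnel through which the new chain leaves, and its small subunit reads the messenger RNA. Many of its proteins have counterparts in the bacterial ribosome, and others are found in mitochondria only.

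The genes described here were chosen by name. A member is a gene whose symbol starts with Mrpl or Mrps and a digit and that has a probe set naming no other gene. There were 76 such genes, 47 Mrpl genes named for the large subunit and 29 Mrps genes named for the small subunit, among 18193 genes with a probe set of their own. For a gene with several probe sets, the one with the highest mean over the 9 arrays was used. All 76 lay above the filter on dim signals (a mean log2 value of 2.66), which 13078 genes passed.

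The samples were CD11b+ cells from the spleens of C57BL/6 mice, isolated from adherent spleen cells with magnetic beads and hybridised to Affymetrix MOE430 arrays. CD11b, the integrin encoded by Itgam, is carried by monocytes, macrophages and granulocytes and by some natural killer and dendritic cells. The HighThreat group had 6 arrays, each from 1 mouse that went through repeated social threat. The LowThreat group had 3 arrays, each a pool of 2 mice kept under conditions without threat, numbered 1-2, 3-4 and 5-6. No genetic change was named for either group. The study asked whether expression in these cells differs after social threat. The values are log2 expression values as deposited, so a difference of 1 is a 2-fold change, and each difference below is threat minus control with its standard error (SE). The test was limma fitted on all 13078 genes, with Benjamini-Hochberg adjusted p under 0.05 as the threshold for a call. A pool evens out differences between its animals, so the spread of the pools is that of pairs, and the arrays' number limits the precision. The serial numbers in the labels' array descriptions run on from the control pools to the threat animals. The labels do not say what these numbers order, and anything that followed them and the group cannot be told apart.

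Across both subunits 27 members rose and 10 fell in threat arrays, and 39 did not pass the test. The background in these arrays was wide: of all genes tested 45.8% were called, 23.8% as higher and 22.0% as lower. The members' share called was 48.7%, which is near that background, with 35.5% higher and 13.2% lower. The median difference over the 76 members was 0.09, against 0.029 over all genes tested. All changes were small, and only Mrpl52 and Mrpl27 passed 1.5-fold. The ranges of the groups did not overlap in 32 members (24 with the threat arrays above, 8 with them below), or 42.1%, against 41.8% of all genes. Since these are bulk samples, fewer cells of a type and less RNA per cell cannot be told apart.

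**Figure D1:**
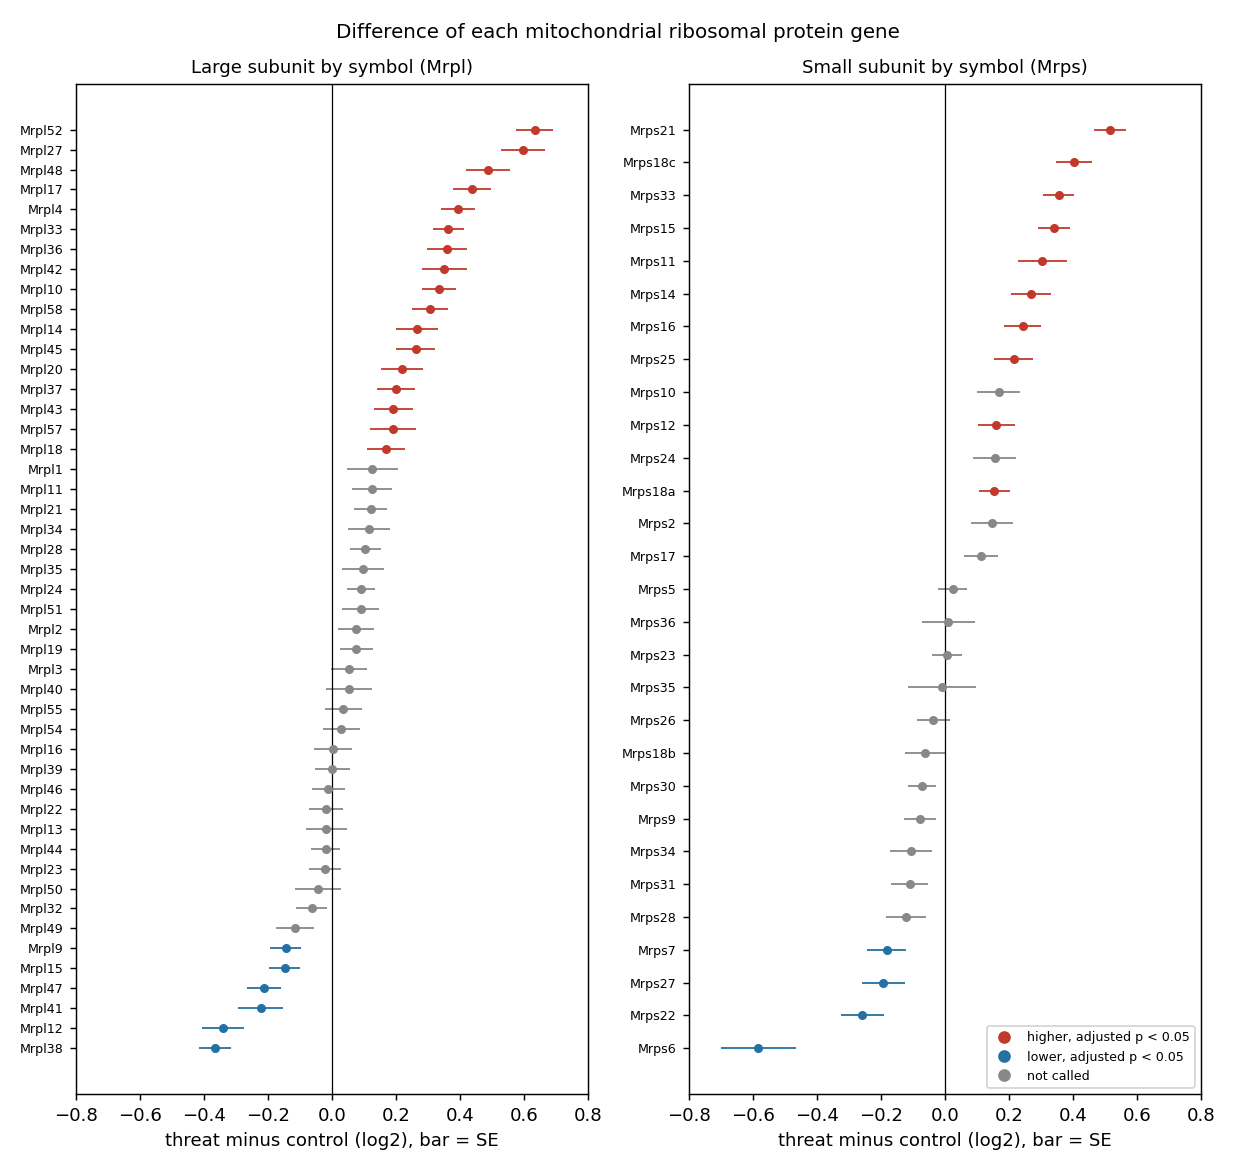
Difference of each member between threat and control arrays on the log2 scale (x axis, threat minus control), Mrpl genes on the left and Mrps genes on the right, ordered by size; points are differences from limma and bars are SE. Differences run from -0.58 (Mrps6) to 0.63 (Mrpl52), with 27 members called higher, 10 lower and 39 not called.

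The start regions of 6 of these genes are shown because they carry the letters of factors known to control genes of the respiratory chain and of mitochondrial gene expression, and because members that rose and members that fell are among them. The sequences come from RefSeq (mouse assembly GRCm38.p6) and run 5′ to 3′ on the gene's strand from position -120 to 30 relative to the annotated start. Capitals mark matches to 1 of 3 motifs, searched on both strands: GCGCANGCG for NRF1, CCGGAAGT for ETS factors such as GABP, and AANATGGCG for YY1. Mrpl52 (chr14:54426789-54426938, plus strand), Mrpl27 (chr11:94653671-94653820, plus strand), Mrpl17 (chr7:105811058-105811207, minus strand) and Mrps21 (chr3:95871485-95871634, minus strand) rose. Mrpl12 (chr11:120484517-120484666, plus strand) and Mrps22 (chr9:98601650-98601799, minus strand) fell.
Mrpl52: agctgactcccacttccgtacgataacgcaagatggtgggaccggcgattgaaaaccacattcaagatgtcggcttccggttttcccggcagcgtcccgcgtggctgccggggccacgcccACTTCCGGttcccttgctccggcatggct
Mrpl27: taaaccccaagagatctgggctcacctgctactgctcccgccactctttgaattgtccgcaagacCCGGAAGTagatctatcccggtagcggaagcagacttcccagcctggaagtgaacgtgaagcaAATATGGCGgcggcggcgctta
Mrpl17: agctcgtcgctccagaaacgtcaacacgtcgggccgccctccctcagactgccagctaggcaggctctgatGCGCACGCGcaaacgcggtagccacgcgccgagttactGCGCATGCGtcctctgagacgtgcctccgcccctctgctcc
Mrps21: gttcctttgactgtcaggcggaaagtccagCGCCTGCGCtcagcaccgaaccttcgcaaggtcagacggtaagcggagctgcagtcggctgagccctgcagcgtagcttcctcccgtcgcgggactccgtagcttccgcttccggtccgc
Mrpl12: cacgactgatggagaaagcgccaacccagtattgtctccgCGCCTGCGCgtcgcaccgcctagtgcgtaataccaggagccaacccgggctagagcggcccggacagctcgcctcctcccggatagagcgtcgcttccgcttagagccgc
Mrps22: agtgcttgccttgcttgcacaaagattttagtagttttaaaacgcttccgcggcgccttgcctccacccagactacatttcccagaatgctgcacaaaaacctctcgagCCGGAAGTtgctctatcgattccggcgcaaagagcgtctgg

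The same reverse NRF1 match, CGCCTGCGC, stands before Mrps21, which rose, and before Mrpl12, which fell. The forward ETS letters stand before Mrpl27, which rose, and before Mrps22, which fell. Mrpl17 has a pair of NRF1 matches, and Mrpl27 has an ETS match before its start and a YY1 match after it. These matches are letters in a window, not measured binding.

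Over the whole window of the table (250 bases before to 50 after the start), 67 of the 76 members had an entry, with 73 entries in all. The NRF1 letters were found in 15 members (22.4%), in 13.5% of the 10531 tested genes with an entry and in 6.25% of all 32851 promoters. The ETS letters were found in 12 members (17.9%), in 8.11% of tested genes and in 3.89% of promoters. The YY1 letters were found in 11 members (16.4%), in 5.37% of tested genes and in 2.38% of promoters. Any of the 3 was present in 35 of 67 members (52.2%) and in 23.9% of tested genes. By direction of the difference, 19 of 26 members that rose, 4 of 8 that fell and 12 of 33 that were not called held a match to any motif. For NRF1 alone those counts were 6 of 26, 2 of 8 and 7 of 33. For ETS they were 7 of 26, 2 of 8 and 3 of 33, and for YY1 7 of 26, 1 of 8 and 3 of 33. In 9 of the 11 members with YY1 letters the match was on the gene's own strand after the start, between 9 and 37 bases into the transcript, as in 298 of 782 promoters with these letters (38.1%). No test was made on these counts, since the groups come from the calls.

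In the large subunit 17 of 47 members rose, 6 fell and 24 did not pass the test, with a median difference of 0.09. These were 36.2% higher and 12.8% lower, against 23.8% and 22.0% of all genes tested. The median was 0.048 without pool 5-6. By place in the ribosome rather than by symbol, members of the large subunit with a bacterial counterpart (28 genes) had 9 that rose and 4 that fell, with a median of 0.10. Those found in mitochondria only (19 genes, which include Mrps30) had 8 and 2, with a median of 0.053. Mrpl55 was put in neither class. Threat and control ranges did not overlap for 15 members with the threat arrays above and for 6 with them below. That is 44.7%, near the 41.8% of all genes tested.

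Mrpl52, a protein of the large subunit found in mitochondria only, rose the most of all members. Its values were 8.34, 8.34 and 8.29 in the control pools and ran from 8.81 through a median of 8.96 to 9.08 in the threat animals. Every threat array lay above every pool, by 0.63 in the mean (SE 0.059, 1.55-fold, limma adjusted p = 2.267e-06). A pair of further bright probe sets of Mrpl52 rose by 0.80 and 0.71, and a dim one differed by 0.29 (adjusted p = 0.0884 over the 27022 probe sets tested).

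Mrpl27, whose bacterial counterpart reaches towards the site where peptide bonds form, was next. Its values were 6.92, 6.92 and 6.68 in the pools, and in threat animals they ran from 7.29 through 7.44 to 7.56. The groups did not overlap, and pool 5-6 was the lowest array (difference 0.60, SE 0.070, 1.51-fold, adjusted p = 1.631e-05). Its second probe set, a dim one, also rose, by 0.35. Mrpl27 overlaps Eme1, an endonuclease subunit of DNA repair, whose own probe set rose by 0.17 (SE 0.058, adjusted p = 0.0263). How far such overlaps enter a probe set was not tested.

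Mrpl48, a protein of the central protuberance found in mitochondria only, had 6.01, 6.01 and 5.71 in the pools and 6.30 to 6.46 (median 6.42) in threat animals. All threat arrays were above the pools, among which pool 5-6 was again lowest, and the rise was 0.49 (SE 0.069, adjusted p = 8.186e-05). A second probe set rose by 0.28. It overlaps Rab6a, a Golgi GTPase that rose by 0.25 (adjusted p = 0.00129).

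Mrpl17 and Mrpl4 sit, like their bacterial counterparts, by the exit tunnel. Mrpl17 had 6.58, 6.49 and 6.44 in the pools and 6.83 to 7.04 (median 6.97) in threat animals. The groups did not overlap, and the rise was 0.44 (SE 0.059, adjusted p = 5.25e-05). It rests on the bright probe set: the other pair, near the filter, differed by 0.12 (adjusted p = 0.379) and -0.17 (adjusted p = 0.242). Mrpl4 had 6.68, 6.68 and 6.50 in the pools and 6.95 to 7.08 (median 7.01) in threat animals. Every threat array was above every pool (0.39, SE 0.054, adjusted p = 6.022e-05).

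Mrpl33, the other member of the large subunit with the brightest signal beside Mrpl52, had 8.14, 8.08 and 8.17 in the pools and 8.43 to 8.57 (median 8.47) in threat animals. It rose by 0.36 without overlap (SE 0.048, adjusted p = 4.683e-05), while a dim second probe set differed by -0.028 (adjusted p = 0.729).

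Mrpl58, once named Ict1, is a peptidyl-tRNA hydrolase that frees stalled mitoribosomes and is also built into the large subunit. Its values were 6.15, 6.14 and 6.00 in the pools and 6.33 to 6.48 (median 6.38) in threat animals. The groups did not overlap (0.31, SE 0.055, adjusted p = 0.000538). A dim second probe set differed by -0.14 (adjusted p = 0.362).

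A further 10 members of the large subunit rose by 0.17 to 0.36: Mrpl36, Mrpl42, Mrpl10, Mrpl14, Mrpl45, Mrpl20, Mrpl37, Mrpl43, Mrpl57 and Mrpl18. Mrpl10 is the counterpart of the protein on which the flexible stalk of the bacterial large subunit is mounted. Mrpl45 is a protein at the tunnel exit, by which the mitoribosome is held at the inner membrane. Mrpl18 overlaps Tcp1, a subunit of the cytosolic chaperonin, which fell by 0.14 (adjusted p = 0.0369). Of these 10, Mrpl20 missed the threshold without pool 5-6, Mrpl37 without pool 3-4, and Mrpl43 without either of them. Mrpl18 and Mrpl57 missed it without either of those pools and without threat animal 1, 2 or 3, and Mrpl57 also without threat animal 6.

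Mrpl38 and Mrpl12 fell the most in the large subunit. Mrpl38, a protein of the central protuberance found in mitochondria only, had 5.35, 5.35 and 5.45 in the pools and 4.96 to 5.09 (median 5.02) in threat animals. All 6 threat arrays were below all pools (-0.36, SE 0.049, adjusted p = 5.602e-05). Another probe set of Mrpl38, which is dimmer, differed by -0.078 (adjusted p = 0.40).

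Mrpl12 forms the stalk that recruits translation factors, and it also binds the mitochondrial RNA polymerase. Its values were 6.20, 6.18 and 6.03 in the pools and ran from 5.70 through 5.78 to 5.97 in threat animals. The groups did not overlap, although threat animal 2 came close to pool 5-6 (-0.34, SE 0.065, adjusted p = 0.000908). Mrpl10, on which the stalk is mounted, and Mrpl12 itself thus lay on opposite sides of 0.

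The other members of the large subunit that fell are Mrpl41, Mrpl47, Mrpl15 and Mrpl9. Mrpl41 had 6.59, 6.57 and 6.47 in the pools and 6.09 to 6.41 (median 6.36) in threat animals, with threat animal 5 lowest. The difference was -0.22 (SE 0.070, adjusted p = 0.0212), and it missed the threshold without pool 1-2 (adjusted p = 0.0832) or pool 3-4 (adjusted p = 0.0697). Its second probe set fell by 0.16, and a dim one differed by 0.062 (adjusted p = 0.693). Mrpl47, the counterpart of a bacterial protein at the tunnel exit, had 5.73, 5.62 and 5.59 in the pools and 5.38 to 5.54 (median 5.42) in threat animals. It fell by 0.21 without overlap (SE 0.052, adjusted p = 0.00497). Mrpl15 differed by -0.15 (SE 0.047, adjusted p = 0.0224) and Mrpl9 by -0.14 (SE 0.048, adjusted p = 0.0277), both without overlap. Mrpl15 missed the threshold without pool 3-4 (-0.10, adjusted p = 0.122), and Mrpl9 without pool 1-2 (adjusted p = 0.13) or pool 5-6 (adjusted p = 0.0869). Of 5 further tested probe sets of Mrpl15 all had differences below 0, from -0.44 to -0.024, and 2 of them passed the threshold. The only tested one specific to a single transcript was that at -0.024 (adjusted p = 0.789 over all probe sets). Of the 2 further probe sets of Mrpl9, 1 fell by 0.23 and the other differed by -0.099 (adjusted p = 0.141).

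Mrpl39 had the smallest difference of the large subunit, with means of 8.04 in both groups (difference 0.00067, SE 0.055, adjusted p = 0.993). Its second probe set rose by 0.29 (adjusted p = 0.00106 over all probe sets), so the gene has no single answer here. The remaining 23 members of the large subunit that were not called had differences from -0.12 (Mrpl49) to 0.13 (Mrpl1).

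**Figure D2:**
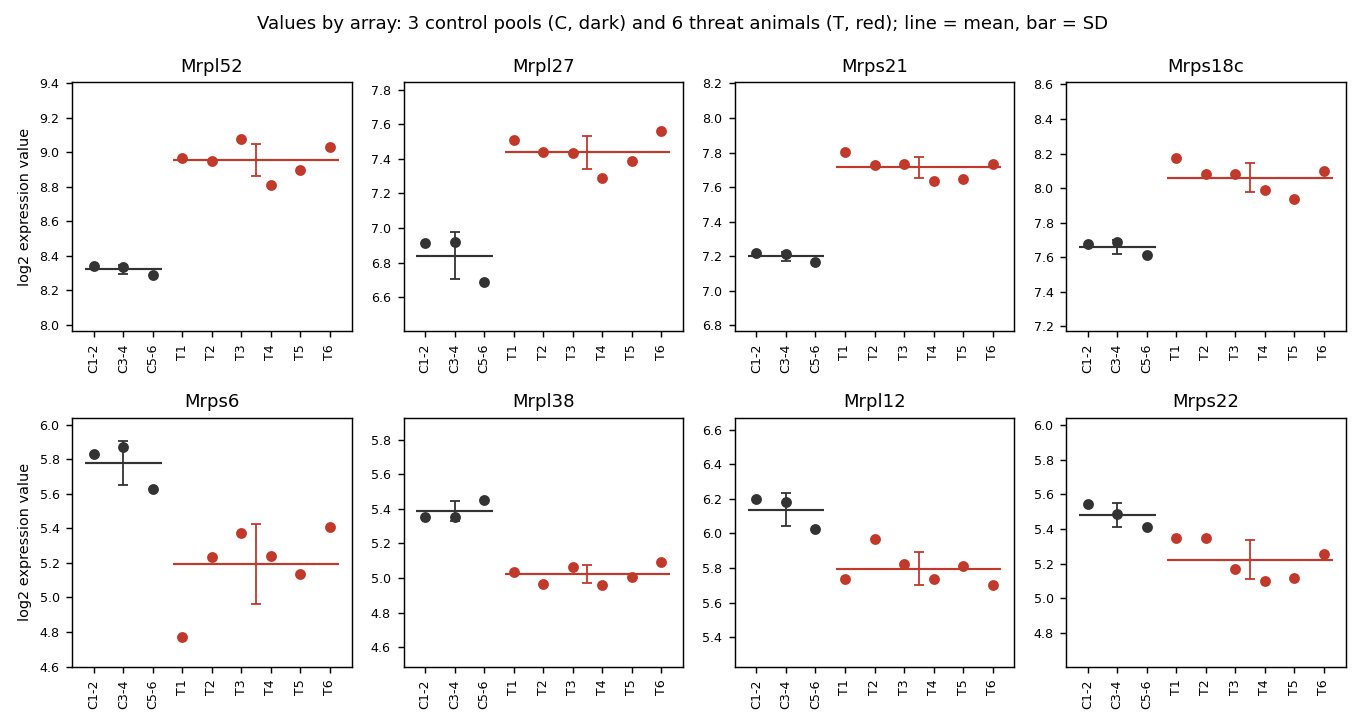
Log2 expression value (y axis, a span of equal size in every panel) on each of the 9 arrays (x axis: control pools C1-2, C3-4 and C5-6, threat animals T1 to T6) for 8 members; lines are group means and bars SD. Mrpl52, Mrpl27, Mrps21 and Mrps18c lie higher in every threat array than in every pool, and Mrps6, Mrpl38, Mrpl12 and Mrps22 lower; Mrps6 has its widest spread in threat animals, down to 4.77 in animal 1.

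In the small subunit 10 of 29 members rose, 4 fell and 15 did not pass the test. These were 34.5% higher and 13.8% lower, against 23.8% and 22.0% of all genes tested. The median difference of the small subunit was 0.023. That median lay near 0 and moved to 0.098 without pool 1-2, 0.046 without pool 3-4, 0.05, 0.046 and 0.015 without threat animals 4, 5 and 6, and the count of falls was 2 without pool 1-2, pool 3-4 or threat animal 4. By place in the ribosome, members of the small subunit with a bacterial counterpart (16 genes) had 7 that rose and 2 that fell, with a median of 0.16. Those found in mitochondria only (9 genes, without Mrps30) had 2 and 2, with a median of -0.037. Mrps18a, Mrps18b and Mrps36 were put in neither class. After quantile normalization 13 members of the small subunit were higher and 2 lower, so 86.7% of calls were rises in place of 71.4%. The mean of each gene's probe sets gave 61.5%. The large and the small subunit were not tested against each other.

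Mrps21, the counterpart of a small basic protein of the bacterial small subunit, rose the most. Its values were 7.22, 7.21 and 7.17 in the pools and 7.64 to 7.80 (median 7.73) in threat animals. The groups lay well apart (0.52, SE 0.050, 1.43-fold, adjusted p = 2.902e-06). A second, dim probe set of Mrps21 differed the other way by -0.32 (adjusted p = 0.0626), and the mean of both probe sets differed by 0.098 (adjusted p = 0.258).

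Mrps18 proteins come in 3 versions, of which Mrps18c sits in the small subunit at the place of the bacterial protein, Mrps18b elsewhere in the small subunit and Mrps18a in the large subunit. Mrps18c had 7.68, 7.69 and 7.61 in the pools and 7.94 to 8.17 (median 8.08) in threat animals. It rose by 0.40 without overlap (SE 0.057, adjusted p = 7.61e-05). Mrps18a rose by 0.15 (SE 0.048, adjusted p = 0.0186), from 5.90, 5.88 and 5.81 in the pools to 5.93 to 6.08 in threat animals. Without pool 5-6 its adjusted p was 0.0763. Mrps18b differed by -0.062 (SE 0.063, adjusted p = 0.456), and its groups overlapped.

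Mrps33, found in mitochondria only, rose by 0.35 (SE 0.049, adjusted p = 6.542e-05). Its pools had 6.63, 6.62 and 6.54 and its threat animals 6.88 to 7.02, with no overlap. Mrps15, a binder of the small subunit's ribosomal RNA, rose by 0.34 (SE 0.050, adjusted p = 0.000105), with 6.42, 6.29 and 6.38 in the pools and 6.64 to 6.78 in threat animals. A second probe set of Mrps15 rose by 0.32, and a dim one differed by -0.11 (adjusted p = 0.244).

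Mrps11 rose by 0.30 (SE 0.077, adjusted p = 0.00602). Its values were 4.78, 4.83 and 4.43 in the pools and 4.94 to 5.05 in threat animals, so the groups were apart with pool 5-6 lowest, and the rise was 0.18 without that pool (adjusted p = 0.0155). Mrps14 rose by 0.27 (SE 0.062, adjusted p = 0.00351), with 7.14, 6.98 and 6.86 in the pools and 7.18 to 7.32 in threat animals. Its second probe set differed by 0.083 (adjusted p = 0.312). Mrps25 and Mrps16 rose by 0.21 and 0.24, and Mrps25 missed the threshold without pool 1-2. Mrps25 overlaps Nr2c2, a nuclear receptor, which fell by 0.46 (adjusted p = 8.159e-05).

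Mrps12 lies in the decoding centre and is the counterpart of the protein in which bacterial streptomycin resistance arises. It had 6.58, 6.45 and 6.41 in the pools and 6.56 to 6.73 (median 6.64) in threat animals. The groups overlapped, since 2 threat arrays lay below pool 1-2, and the rise was 0.16 (SE 0.058, adjusted p = 0.0379). It missed the threshold without pool 3-4, without pool 5-6 and without threat animal 2, 3 or 6 (adjusted p = 0.0592 to 0.15).

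Mrps6, the counterpart of a protein of the bacterial platform, fell the most of all members. Its values were 5.83, 5.87 and 5.63 in the pools and ran from 4.77 through 5.24 to 5.41 in threat animals. Every threat array was below every pool, and animal 1 was lowest (-0.58, SE 0.12, adjusted p = 0.00131). A second probe set of Mrps6 fell by 0.44. Mrps6 shares its locus with Slc5a3, a myo-inositol transporter that was not tested here.

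Mrps22, a protein of the small subunit found in mitochondria only, had 5.55, 5.49 and 5.41 in the pools and 5.10 to 5.35 (median 5.21) in threat animals. It fell by 0.26 without overlap (SE 0.067, adjusted p = 0.00698). Mrps27, an RNA-binding protein with pentatricopeptide repeats, and Mrps7, on which the head of the small subunit is built, fell by 0.19 and 0.18. Both had overlapping groups (adjusted p = 0.0356 and 0.0278). Mrps27 missed the threshold without pool 1-2, pool 3-4, threat animal 1 or threat animal 4 (adjusted p = 0.0604 to 0.166). Mrps7 did so without pool 1-2, pool 3-4, threat animal 2 or threat animal 4 (adjusted p = 0.0515 to 0.119). Mrps7 overlaps Mif4gd, which fell by 0.35 (adjusted p = 0.000319).

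Mrps36 is a subunit of the 2-oxoglutarate dehydrogenase complex rather than of the mitoribosome, and Mrps30 sits in the large subunit despite its symbol. Mrps36 differed by 0.0097 (SE 0.083, adjusted p = 0.936) and Mrps30 by -0.072 (SE 0.043, adjusted p = 0.20). Mrps23 had the smallest difference of the small subunit, 0.0067 (SE 0.047, adjusted p = 0.923). The other 11 members that were not called ran from -0.12 (Mrps28) to 0.17 (Mrps10). With Mrps18a and Mrps30 counted in the large subunit and Mrps36 left out, the counts were 18 higher and 6 lower of 49, and 9 higher and 4 lower of 26.

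**Figure D3:**
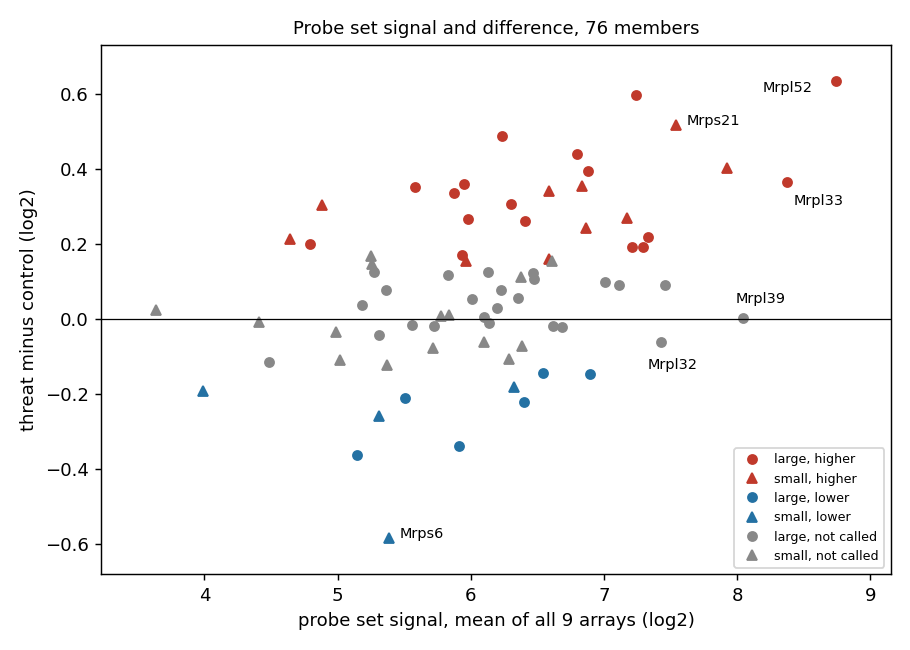
Difference between threat and control arrays (y axis, log2) against the mean signal of the used probe set over all 9 arrays (x axis, log2) for the 76 members; circles are Mrpl and triangles Mrps genes, coloured by call. From the 19 brightest to the 19 dimmest members, the counts in steps of 19 were 13, 5, 6 and 3 higher and 1, 3, 2 and 4 lower. Of all tested genes in those signal ranges 35.5%, 32.8%, 25.8% and 19.1% were higher and 30.9%, 30.8%, 29.7% and 20.1% lower.

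The members were also described by the signal of the probe set used, which is the value that chose it among a gene's probe sets, so no test was made. Among the 19 brightest (mean log2 signal 6.79 to 8.74) 13 rose and 1 fell, with a median difference of 0.24. All tested genes of that signal range had a median of 0.024, with 35.5% higher and 30.9% lower. In the next 19 (6.20 to 6.68) 5 rose and 3 fell, with a median of 0.077. All tested genes of that range had 32.8% higher and 30.8% lower. In the 19 after them (5.50 to 6.14) 6 rose and 2 fell, with a median of 0.0097, beside 25.8% higher and 29.7% lower of all genes. Among the 19 dimmest (3.63 to 5.39) 3 rose and 4 fell, with a median of -0.009, beside 19.1% higher and 20.1% lower. From the brightest range to the dimmest, over all genes the share called higher became smaller and so did the share called lower. Among the members only the rises became fewer, while the falls were 1, 3, 2 and 4. Across the 76 members the correlation of signal and difference was 0.44 (Pearson) and 0.39 (Spearman), and over all 13078 genes it was 0.037 and -0.014. These points share the same 9 arrays, and a probe set's signal depends on its probes as well as on the amount of RNA, so this describes probe sets and not transcript levels.

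The mean of the members on each array moved little. Over the large subunit it was 6.34, 6.29 and 6.20 in the pools and 6.34 to 6.42 in threat animals. Over the small subunit it was 5.85, 5.80 and 5.71 in the pools and 5.80 to 5.88 in threat animals. In both, pool 5-6 was the lowest array and threat animals 4 and 5 were the lowest of their group, not above pool 1-2 in the small subunit, and the groups overlapped. The median SD of a member was 0.068 among threat arrays and 0.089 among pools.

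**Figure D4:**
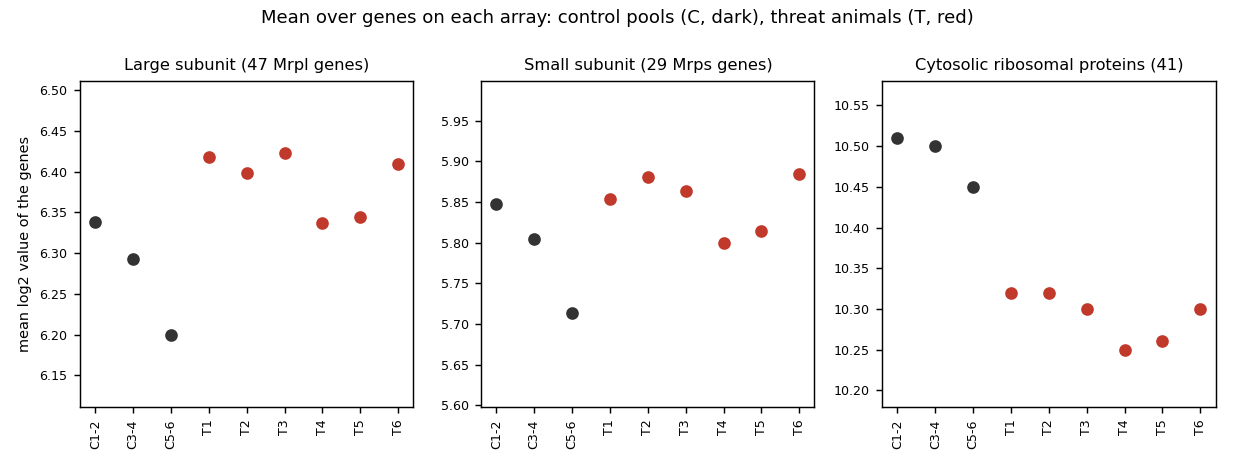
Mean log2 value of all genes of a group (y axis, equal span) on each array (x axis: control pools C1-2 to C5-6 and threat animals T1 to T6) for the large subunit, the small subunit and the cytosolic ribosomal proteins. The means of the mitochondrial subunits overlap between groups, while those of the cytosolic ribosomal proteins lie at 10.45 to 10.51 in pools and 10.25 to 10.32 in threat animals.

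Genes of the cytosolic ribosome, which makes the imported proteins, mostly fell where they were tested. Only those with a probe set naming no other gene were counted. Of 41 tested cytosolic ribosomal protein genes 29 fell and 1, Rpl14, rose, with a median of -0.18. The falls were 70.7% of the list, against 22.0% of all genes tested. The smallest p-values were those of Rpl12 (-1.39, SE 0.10, adjusted p = 3.388e-07) and Rps25 (-0.35, SE 0.046, adjusted p = 4.403e-05). The probe sets of Rpl12 (mean 5.14 in pools, 3.74 in threat arrays) and Rpl14 (3.83 and 4.08) were dim. The mean of the whole list was 10.48 in pools. The lists were not tested against each other.

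Of 5 subunits of the mitoribosome with other names 4 were tested. Ptcd3, a pentatricopeptide protein of the small subunit, fell by 0.48 (SE 0.073, adjusted p = 0.000155). Dap3, a GTP-binding protein of the small subunit, rose by 0.19 (SE 0.048, adjusted p = 0.00518). Chchd1 (-0.15) and Gadd45gip1 (-0.12) did not pass the test.

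Among 12 mitochondrial translation factors and partners 2 rose and 2 fell, with a median of 0.051. That is 33.3% called, against 45.8% of all genes tested. Gfm1, the elongation factor that moves the mitoribosome along the message, rose by 0.39 (SE 0.056, adjusted p = 9.705e-05). Slirp, which guards mitochondrial messages, rose by 0.32 (SE 0.056, adjusted p = 0.000493), and its partner Lrpprc fell by 0.31 (adjusted p = 0.00114).

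Among 21 factors that assemble the mitoribosome or modify its RNA 6 rose and 5 fell, with a median of -0.017. Of the list 28.6% were higher and 23.8% lower, near the 23.8% and 22.0% of all genes tested. Noa1, a GTPase of mitoribosome assembly, rose by 0.91 (SE 0.081, adjusted p = 1.432e-06). Nsun4, a methyltransferase of the ribosomal RNA, fell by 0.61 (SE 0.062, adjusted p = 4.512e-06). Both differences were larger in size than that of any member except, for Nsun4, the rise of Mrpl52.

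Charging of mitochondrial tRNAs had 18 tested genes, of which 1 rose and 5 fell, with a median of -0.012. The share called was 33.3%, against 45.8% of all genes tested. Hars2, which loads histidine, fell by 0.62 (SE 0.068, adjusted p = 8.724e-06), and Fars2, which loads phenylalanine, rose by 0.25 (SE 0.048, adjusted p = 0.000957). Copying and transcription of mitochondrial DNA had 10 tested genes, of which 1 rose and 4 fell, with a median of -0.12. Tfam, which packs mitochondrial DNA and starts its transcription, fell by 0.71 (SE 0.069, adjusted p = 3.23e-06). Polg2, the accessory subunit of the DNA polymerase, fell by 0.63 (SE 0.072, adjusted p = 1.284e-05).

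Of 7 tested regulators of mitochondrial biogenesis 1 rose and 3 fell. That is 57.1% of a short list, against 45.8% of all genes tested. Esrra, a nuclear receptor that drives respiratory genes, rose by 0.85 (SE 0.081, adjusted p = 2.747e-06). Pprc1, a coactivator, fell by 0.32 (SE 0.070, adjusted p = 0.00242). The factors whose letters were searched in the promoters differed by 0.069 (Nrf1, adjusted p = 0.299), -0.20 (Gabpa, adjusted p = 0.00703) and -0.10 (Yy1, adjusted p = 0.0995).

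**Figure D5:**
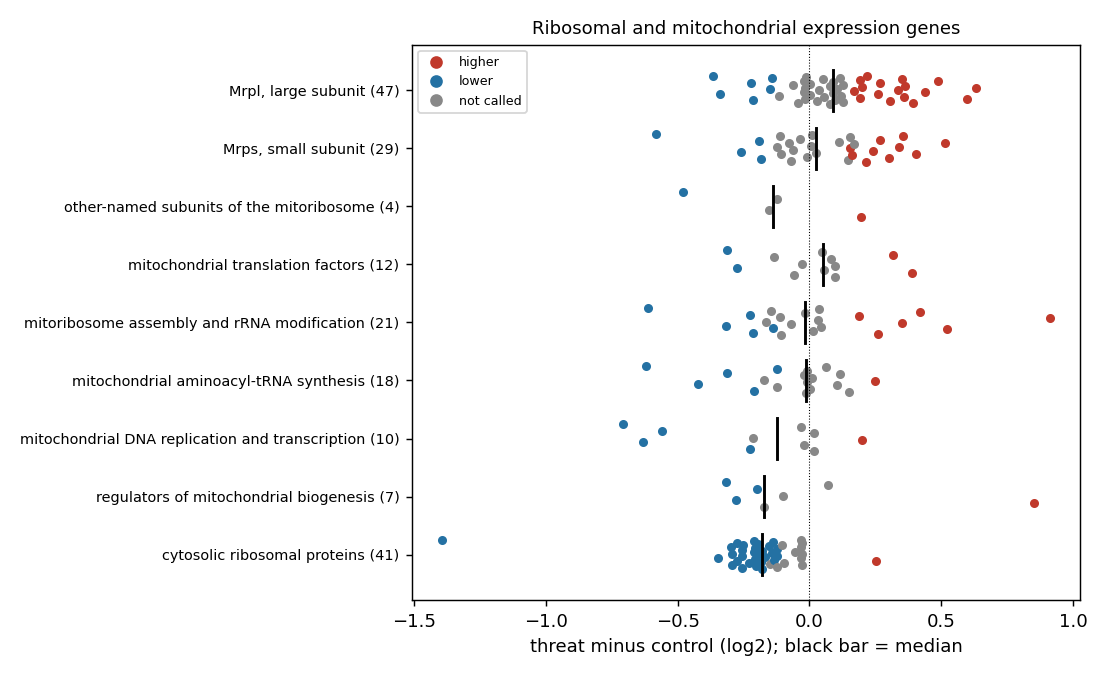
Difference between threat and control arrays (x axis, log2) of each tested gene in the 2 subunits and in related lists (y axis, number of tested genes in brackets); colours give the call and black bars the median. The cytosolic ribosomal proteins lie below 0 but for Rpl14, while the other groups spread to both sides, with Noa1 at 0.91 and Tfam at -0.71.

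Markers of cell types, both those that carry CD11b and others, and of dividing cells moved with the groups, most of them by more than the members did. Of all genes tested 23.8% were called higher and 22.0% lower. Of 13 granulocyte genes 12 rose and none fell (median 1.53, Mmp8 by 2.76), and their mean was 8.63 to 8.78 in the pools and 10.1 to 10.6 in threat animals. Of 11 genes of dividing cells 10 rose (median 1.13, Ube2c by 1.73), with means of 4.71 to 4.90 and 5.55 to 6.20. Of 8 monocyte and macrophage genes 6 rose (median 0.38, Cd14 by 0.58), with means of 9.29 to 9.41 and 9.70 to 9.77, and Itgam, the gene of the sort marker, rose by 0.57.
Of 9 B cell genes 8 fell (median -2.31, Fcrla at -2.02), with means of 6.85 to 7.05 in the pools and 4.79 to 5.18 in threat animals. Of 7 natural killer cell genes 6 fell (median -1.69, Klrd1 at -1.52), with means of 5.55 to 5.79 and 3.85 to 4.02. Of 5 T cell genes 3 fell (median -0.87, Cd2 at -2.16), with means of 4.70 to 4.81 and 3.83 to 4.00, and of 7 dendritic cell genes 6 fell (median -1.01, Ccr7 at -1.89), with means of 6.11 to 6.23 and 5.13 to 5.19. These values have no true 0, so none of the markers can be called absent.
The difference between the 3′ and 5′ probe sets of beta-actin, a measure of RNA integrity, was 0.472 ± 0.063 (SD, n = 3) in pools and 0.357 ± 0.034 (SD, n = 6) in threat arrays (two-sided exact permutation p = 0.0238), while for Gapdh the groups were -0.036 apart (exact p = 0.512). The part of these shifts in cell makeup, division and RNA integrity in the members' differences was not tested.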

How the data were processed

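The 9 arrays hold 6 threat animals and 3 control pools, grouped by the stress label. The authors deposited log2 values for each probe set on each array. They used RMA, per the submitters' processing notes. Its settings were not given in the sources used here, and the log base was read from the values. Array medians lie between 3.19 and 3.22. The platform's annotation names 1 gene for 34945 probe sets, several for 932 and none for 9160, and 64 are controls; 34741 of the first were matched to RefSeq symbols and 204 kept their own. Probe sets with a mean under the 40th percentile (2.66) were left out. limma 3.58.1 in R 4.3.3 (lmFit, eBayes, arrays weighted equally) was fitted on 13078 genes, with two-sided p-values adjusted by Benjamini-Hochberg. The steps were run on simulated data in which all arrays had the spread of threat arrays and few genes changed. Since these data have pools and many called genes, that run checks the code only.

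Members, gene lists and motifs were chosen with earlier results of these data known. Text names, per subunit, the 6 largest rises and 6 largest falls among calls, the 2 brightest, the smallest difference and 8 genes chosen for their roles; of each related list the 2 genes with the smallest p-values; and of cell type lists the first. Lrpprc, Chchd1, Gadd45gip1, Rpl14, Itgam, overlapping genes, the 3 motif factors and the further members listed as called were named beside these after their values were seen. Where the labels tell no more, p-values measure the spread between these arrays. Alternatives covered the filter, the choice of probe set, the normalization, limma's settings, weights, pairing of animals, a replicate block and leaving out each array; every other probe set of a named member was added after seeing the data.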

Additional observations from a re-analysis of the deposited data

Results flagged for a closer look

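Among the 6 threat animals, 3 of the 30 named members had a single array set apart by a gap that was wide for the group's range by Dixon's criterion. Chance flags about 1 in 20 groups. For Mrpl15 it was threat animal 2, lowest at 6.799, with the next at 6.849. For Mrpl41 it was threat animal 5, lowest at 6.093, with the next at 6.321. For Mrpl47 it was threat animal 6, highest at 5.543, with the next at 5.438. In all 3 genes these arrays still lay below every control pool.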

How the results depend on the processing

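With 9 arrays, small differences lay near the threshold. Of the 37 calls 24 held in every fit that left out 1 array, and 19 (15 higher, 4 lower) in all 19 alternative fits. Small subunit members lower numbered 2 in place of 4 after quantile normalization and 2 with threat animals averaged in number pairs; without 1 array they ranged from 2 (without pool 1-2, pool 3-4 or threat animal 4) to 5, the large subunit's median from 0.048 (without pool 5-6) to 0.11, and the small subunit's from 0.015 to 0.098 (without pool 1-2). The cause was not tested. The calls over all genes ran from 5300 (without pool 5-6) to 6283. With the number pair as a replicate block 23 members of the large and 13 of the small subunit were called, and 5945 genes; Mrps12 (adjusted p = 0.0532) and Mrps27 (adjusted p = 0.0508) were lost. Same-numbered samples deviated with correlations of 0.149, -0.152 and -0.029. So few pools cannot tell whether a shared number marks a pairing. Among the named members some differences changed sign with another probe set of the gene, none of which was called. They were those of Mrpl17 (-0.17, also the single-transcript choice), Mrpl58 (-0.14, likewise), Mrpl33 (-0.028), Mrpl41 (0.062), Mrps15 (-0.11), Mrps21 (-0.32) and Mrps23 (-0.027). Among the other members Mrpl3, Mrps10 and Mrps5 had a further probe set called lower (-0.27, -0.51 and -0.23) beside a difference above 0. Among the members near 0, Mrpl39 was at -0.00028 after quantile normalization and ran from -0.026 to 0.021 without 1 array, Mrps23 from -0.03 to 0.046 and Mrps36 from -0.079 to 0.098. When probe sets were averaged per gene, Mrpl17, Mrpl41, Mrpl58, Mrps14 and Mrps21 were not called. Without Mrpl38's or Mrpl15's shared probe sets (single-transcript choice) both calls were lost. RMA gives no detection call, so the share of background in dim probe sets is unknown.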

Other observations

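Some probe sets name a mitochondrial ribosomal protein gene together with another gene and belong to no member. A pair that name Mrpl30 and Gm6238 were higher in threat arrays, by 0.31 (SE 0.073, limma adjusted p = 0.00563) and 0.41 (SE 0.065, adjusted p = 0.000462), with p-values adjusted over the 27022 probe sets tested. One that names Mrpl53 and Ccdc142 differed by 0.087 (adjusted p = 0.158), and one that names Mrps34 and Nme3 by 0.12 (adjusted p = 0.306).

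The members hold 156 probe sets in all, of which 134 were tested, 37 were called higher and 21 lower. The share called over all 27022 probe sets tested is not given here. Among all genes tested it was 45.8%, so these counts and those below cannot be read as particular to the members. No member had probe sets called in both directions, while 23 of the 35 with several tested probe sets had called and uncalled ones. Of the 39 members not called by their brightest probe set 20 had a further tested one. In 11 of these a further probe set was called, higher in 5 (Mrpl11, Mrpl21, Mrpl28, Mrpl34 and Mrpl39) and lower in 6 (Mrpl3, Mrpl44, Mrpl49, Mrpl50, Mrps10 and Mrps5). Mrpl11 had further probe sets higher by 0.21 and 0.25, and Mrpl28 by 0.28 and 0.15, while Mrpl34 and Mrpl21 had 1 each, higher by 0.32 and 0.19. Mrpl3, Mrpl44 and Mrpl49 had one lower by 0.27, 0.18 and 0.24. Mrpl50 had a dimmer one lower by 0.35 (adjusted p = 0.00245), and Mrps10 a dim one lower by 0.51 (adjusted p = 0.000862) beside 0.17 on the one used. Mrps5, the member with the dimmest signal, had one lower by 0.23 (adjusted p = 0.046).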
